A study of Mus musculus with 12 samples.

Results

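The lineage interaction of the Foxp3-positive effect is the amount by which the change from control to Foxp3-positive cells in CD8 T cells differed from the same change in CD4 T cells, gene by gene. It was computed as the CD8 change minus the CD4 change on the log2 scale, from all 12 arrays of the series (6 arrays in each lineage, 4 groups of 3). No array was chosen or left out by its values. The genes described are those whose change differed between the lineages, among 22180 genes that each had a probe set (transcript cluster) with a single gene symbol. Tgfb3, Cmah, Il18r1 and Maf are the genes taken to mark the interaction, chosen with earlier results of these data known. That all 4 differed between the lineages, as given below, is therefore not independent evidence.

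Alloreactive mouse T cells were compared, meaning T cells activated by allogeneic dendritic cells. CD4 or CD8 T cells came from C57BL6 mice that carry a Foxp3-GFP reporter, in which green fluorescent protein marks cells that express Foxp3. In each well 200000 T cells were cultured with 20000 CD11c dendritic cells from BALB/c mice, and IL-2 at 5 ng/mL was given to all 4 groups. The CD8 control and CD4 control groups received IL-2 alone and were sorted as GFP-negative cells. The CD8 Foxp3-positive and CD4 Foxp3-positive groups were in addition given 40 nM retinoic acid and 5 ng/mL TGF-β, and their GFP-positive cells were sorted. CD8 cultures lasted 4 days and CD4 cultures 5 days, so lineage and culture time cannot be told apart. Treatment and sort changed together, so an effect of TGF-β and retinoic acid cannot be told apart from an effect of Foxp3. Cells were pooled before staining and sorting, and whether replicates A, B and C of a group derive from different cultures or mice is not stated. P-values measure only how these samples vary, and that variation may be technical.

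TGF-β together with IL-2 induces Foxp3 in activated T cells, and retinoic acid strengthens that induction and gives cells a gut-homing phenotype. Foxp3 is the transcription factor of regulatory T cells, which restrain other immune cells. CD4 T cells mostly become helper cells that act through cytokines such as IL-4 and IL-13, while CD8 T cells mostly become cytotoxic cells. A positive interaction means that a gene rose more, or fell less, in CD8 than in CD4 cells, and a negative interaction means the opposite.

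The 12 arrays had medians of 5.23 to 5.33, and arrays of a group correlated at 0.992 to 0.995 over the 22180 genes. The quality weights that limma estimated ran from 0.512 for CD8 control C to 1.665 for CD8 control A. Foxp3 itself did not differ in its change. It read 5.41, 5.23 and 6.33 in the CD8 controls, 12.45, 12.46 and 12.53 in the CD8 Foxp3-positive arrays, 5.68, 6.07 and 5.52 in the CD4 controls and 12.44, 12.39 and 12.49 in the CD4 Foxp3-positive arrays. The rise was 6.82 ± 0.23 in CD8 and 6.68 ± 0.23 in CD4 (log2 difference ± SE of limma, as throughout), and the interaction was 0.14 ± 0.32 (limma adjusted p = 0.838). Cd4 stayed at 4.90 to 6.0 in the CD8 arrays and 11.84 to 12.45 in the CD4 arrays, and Cd8a at 11.72 to 12.58 and 5.72 to 8.16, with interactions of 0.21 ± 0.32 and -0.28 ± 0.43 that did not pass. Cd8b1, the other chain of the CD8 co-receptor, did differ (1.66 ± 0.19, adjusted p = 0.000127). Its mean level in CD8 cells was 11.86 without and 11.97 with Foxp3 induction, but it fell by 1.55 ± 0.14 in CD4 cells, from 7.62, 8.02 and 7.53 to 6.02, 6.05 and 6.45. Cd8a, in contrast, rose by 1.03 ± 0.30 in CD4 cells, with arrays that overlapped. How far a few CD8 cells in the CD4 sorts bear on these 2 readings was not tested, and in such bulk samples fewer cells of a type and less RNA per cell cannot be told apart.

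The change differed between the lineages for 2993 of 22180 genes (limma, Benjamini-Hochberg adjusted p under 0.05), that is 13.5% of those tested. The interaction was positive for 1334 genes (6.01%) and negative for 1659 (7.48%). With cyclic loess scaling the split turned, to 1640 positive and 1294 negative, so the balance of signs over all genes rests on the scaling. Among differences of 2-fold or more the positive ones were more numerous, with 542 genes (2.44%) against 257 (1.16%). An unadjusted limma p under 0.05 was reached by 5774 of the 22180 genes, both signs together. The unadjusted counts of the lists below are to be read beside that number. Their called counts are to be read beside the 6.01% positive and 7.48% negative of all genes.

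**Figure D1:**
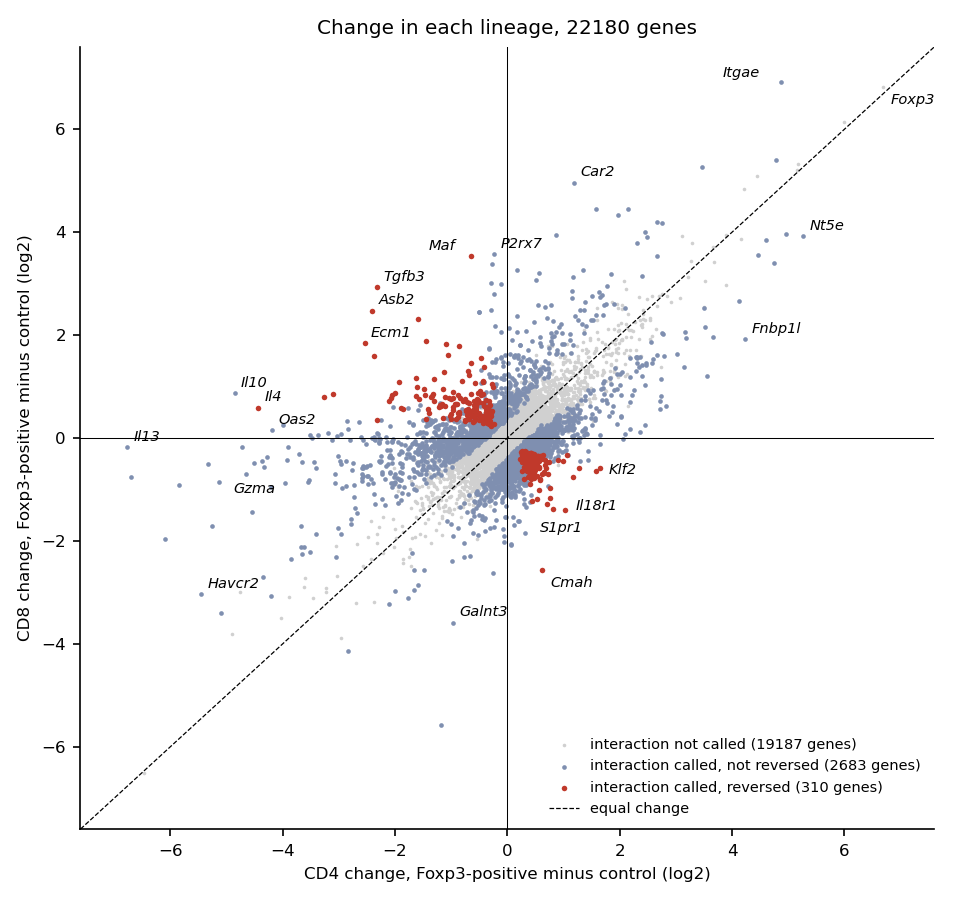
Each point is 1 of 22180 genes, with its CD4 change (Foxp3-positive minus control, log2) on the horizontal axis and its CD8 change on the vertical axis. Distance from the dashed line of equal change shows the size of the interaction, grey points are genes not called, blue-grey points are called genes, and the 310 red points are called genes that moved in opposite directions. Il13 lies far to the left at a CD8 change near 0, and Tgfb3, Asb2 and Ecm1 lie in the quadrant of a rise in CD8 and a fall in CD4.

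Sorted by their single-lineage changes, most called genes had passed the test in 1 lineage and not in the other. Over all genes the change passed for 20% in CD8 and 22.5% in CD4. In 1098 of the 2993 (36.7%) the CD4 change passed and the CD8 change did not, and in 971 (32.4%) it was the other way round. A change of the same sign passed in both lineages and was larger in CD4 for 263 genes (8.79%) and larger in CD8 for 188 (6.28%). In 163 genes (5.45%) neither change passed although their difference did. The remaining 310 genes (10.4% of those called, 1.4% of all genes) had reversed, which here means that both changes passed with opposite signs. Of these, 154 (0.694%) rose in CD8 and fell in CD4, and 156 (0.703%) fell in CD8 and rose in CD4. The second count depended on single arrays, and was 89 without CD4 control B, 93 without CD4 Foxp3-positive B, 97 without CD4 Foxp3-positive A and 100 without CD8 control A.

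Among the genes that rose in CD8 and fell in CD4 was Tgfb3, a TGF-β ligand. It went from 5.74, 5.32 and 6.35 in CD8 controls (replicates A, B and C) to 8.58, 8.98 and 8.66 with Foxp3, and from 9.11, 9.60 and 9.66 in CD4 controls to 6.92, 6.97 and 7.49. Within each lineage the 2 groups did not overlap, and their order was opposite in the 2 lineages. Tgfb3 rose by 2.94 ± 0.24 in CD8 and fell by 2.33 ± 0.24 in CD4, an interaction of 5.26 ± 0.34 (adjusted p = 1.27e-06). Maf, a transcription factor of Il4 and Il10, read 5.55, 5.68 and 5.01 in CD8 controls against 8.93, 8.83 and 9.07 in CD8 Foxp3-positive arrays, and 10.26, 10.31 and 10.36 in CD4 controls against 9.49, 9.65 and 9.82 in CD4 Foxp3-positive arrays. The CD8 Foxp3-positive arrays thus lay far closer to the CD4 arrays than the CD8 controls did, with a rise of 3.53 ± 0.15 in CD8, a small fall of 0.65 ± 0.15 in CD4 and an interaction of 4.19 ± 0.22 (adjusted p = 1.95e-07).

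Asb2, a substrate adaptor of a ubiquitin ligase, went from 6.47, 6.29 and 6.0 to 8.68, 8.85 and 8.65 in CD8 cells and from 11.09, 11.17 and 10.97 to 8.71, 8.30 and 9.0 in CD4 cells. The Foxp3-positive arrays of both lineages met at one level, and the interaction was 4.88 ± 0.23 (adjusted p = 9.55e-08). Ecm1, a secreted matrix protein, went from 5.85, 6.09 and 6.09 to 7.93, 7.91 and 7.72 in CD8 cells and from 12.53, 12.78 and 12.77 to 10.26, 9.80 and 10.39 in CD4 cells (4.38 ± 0.20, adjusted p = 9.55e-08). Its 2 lineages approached but stayed apart. Trat1, an adaptor of the T cell receptor complex, went from 5.75, 5.08 and 6.17 to 8.40, 7.31 and 8.22 in CD8 cells and from 10.08, 10.54 and 10.47 to 8.84, 8.56 and 8.91 in CD4 cells (3.90 ± 0.41, adjusted p = 5.67e-05). Tgm2, a transglutaminase known as a retinoic acid target, went from 6.57, 6.66 and 6.62 to 8.32, 8.99 and 8.18 in CD8 cells and from 10.31, 9.71 and 11.11 to 8.84, 8.45 and 9.48 in CD4 cells. None of these genes had overlapping groups within a lineage. For Tgm2 the interaction was 3.34 ± 0.46 (adjusted p = 0.000456).

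In 3 further genes the order of the lineages itself turned over. Cdh17, a cadherin, went from 4.82, 5.11 and 4.58 to 6.58, 6.73 and 5.99 in CD8 and from 7.0, 7.14 and 7.59 to 4.95, 4.52 and 5.15 in CD4 (interaction 3.97 ± 0.32, adjusted p = 7.11e-06). Hip1, a clathrin adaptor, went from 8.16, 7.88 and 8.27 to 9.40, 9.21 and 9.18 in CD8 and from 9.51, 9.60 and 9.56 to 7.88, 7.59 and 8.30 in CD4 (2.79 ± 0.22, adjusted p = 6.51e-06). For Gpr171, a G protein-coupled receptor, the values were 9.39, 9.27 and 9.47 to 10.66, 10.47 and 10.44, and 10.93, 11.11 and 11.05 to 9.71, 9.43 and 10.02 (2.46 ± 0.19, adjusted p = 4.89e-06). In all 3 the CD4 controls lay above the CD8 controls, and the CD8 Foxp3-positive arrays lay above the CD4 Foxp3-positive arrays.

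**Figure D2:**
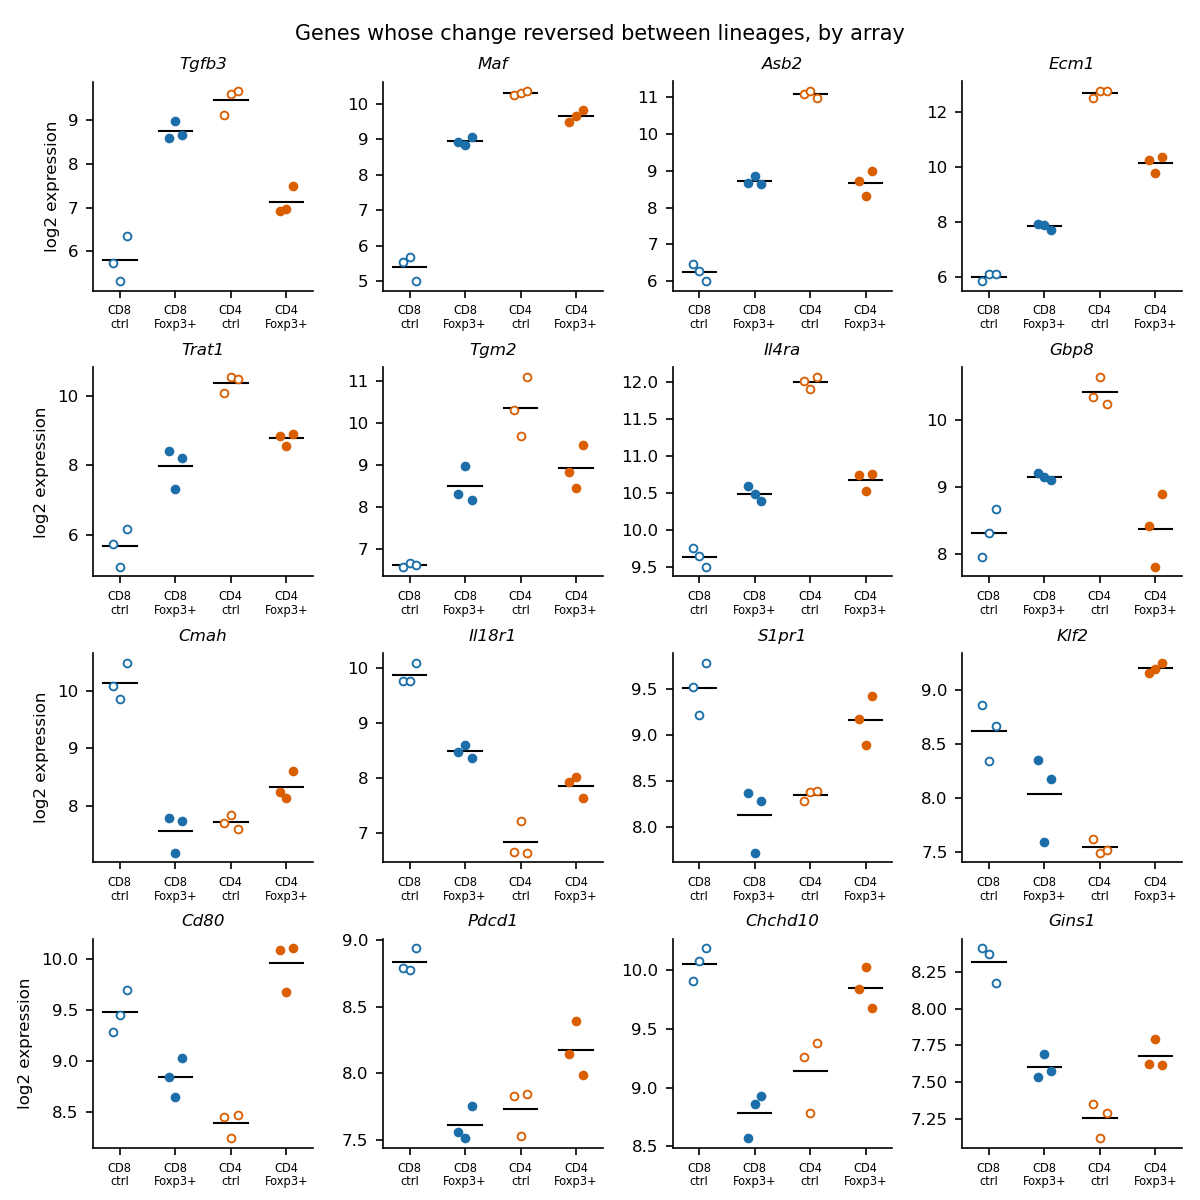
Log2 expression of 16 genes that reversed, by array, with open circles for controls, filled circles for Foxp3-positive arrays and a bar at the mean of each group of 3. The upper panels (Tgfb3 to Gbp8) rise from left to right within CD8 and fall within CD4, and the lower panels (Cmah to Gins1) do the opposite. Among these 16 genes only the CD8 groups of Klf2 overlap, at 8.35.

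In the opposite direction, genes fell in CD8 and rose in CD4. Cmah, the enzyme that hydroxylates sialic acid, went from 10.08, 9.85 and 10.49 to 7.80, 7.19 and 7.74 in CD8 cells and from 7.71, 7.84 and 7.6 to 8.25, 8.13 and 8.61 in CD4 cells. Most of its interaction of -3.17 ± 0.27 (adjusted p = 1.12e-05) lay in the CD8 fall of 2.56 ± 0.19, and the CD4 rise was 0.61 ± 0.19 (adjusted p = 0.0339). Il18r1, the ligand-binding chain of the IL-18 receptor, went from 9.78, 9.78 and 10.11 to 8.48, 8.60 and 8.37 in CD8 and from 6.64, 7.21 and 6.64 to 7.92, 8.01 and 7.64 in CD4. Its interaction was -2.43 ± 0.23 (adjusted p = 2.4e-05), with a fall of 1.40 ± 0.16 and a rise of 1.02 ± 0.16. The groups of neither gene overlapped within a lineage.

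A pair of genes linked in T cell trafficking moved this way. S1pr1, the sphingosine phosphate receptor that lets T cells leave lymphoid organs, went from 9.52, 9.21 and 9.79 to 8.37, 7.72 and 8.29 in CD8 and from 8.28, 8.38 and 8.40 to 9.17, 8.89 and 9.43 in CD4 (interaction -2.19 ± 0.26, adjusted p = 0.000169). Klf2, a transcription factor of S1pr1, went from 8.86, 8.35 and 8.67 to 8.35, 7.6 and 8.18 in CD8 and from 7.62, 7.50 and 7.52 to 9.16, 9.19 and 9.26 in CD4 (-2.24 ± 0.24, adjusted p = 7.34e-05). The CD4 groups of Klf2 were well separated, while its CD8 groups overlapped and the CD8 fall of 0.58 ± 0.17 (adjusted p = 0.0291) was the weaker side.

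The inhibitory receptor gene Pdcd1, which encodes PD-1, went from 8.79, 8.77 and 8.94 to 7.56, 7.51 and 7.76 in CD8 and from 7.83, 7.53 and 7.84 to 8.14, 8.39 and 7.98 in CD4 (-1.67 ± 0.17, adjusted p = 5.67e-05). Cd80, a ligand of CD28 and CTLA-4, went from 9.28, 9.45 and 9.70 to 8.84, 8.64 and 9.02 in CD8 and from 8.45, 8.24 and 8.47 to 10.09, 9.68 and 10.11 in CD4 (-2.22 ± 0.21, adjusted p = 2.36e-05). Both separated their groups in each lineage. Another 6 genes that the naming rule selected also reversed this way: Chchd10, a mitochondrial protein (-1.99 ± 0.22), Pstpip2, a cytoskeletal adaptor (-1.92 ± 0.26), Dnph1, a nucleotide hydrolase (-1.74 ± 0.24), Dennd4a, a Rab exchange factor (-1.43 ± 0.19), Parp8, an ADP-ribosyltransferase (-1.32 ± 0.17), and Mtap, which salvages methylthioadenosine (-1.31 ± 0.20). Their CD8 falls ran from 0.66 to 1.27 and their CD4 rises from 0.64 to 1.17, each past the threshold. The highest adjusted p of these interactions was 0.000982, for Mtap. With its clusters averaged the interaction of Pstpip2 was -0.87.

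Among the named genes the largest interactions were of cytokine genes that were high in CD4 controls alone. Il13, a type 2 helper cytokine, read 12.11, 11.89 and 12.02 in CD4 controls and 5.07 to 5.66 in the other 9 arrays. It fell by 6.77 ± 0.15 in CD4 and did not change detectably in CD8 (-0.18 ± 0.15), an interaction of 6.59 ± 0.21 (adjusted p = 2.57e-09). Il24, a cytokine of the IL-10 family, read 11.11, 10.92 and 11.30 in CD4 controls and 4.33 to 6.22 elsewhere (5.94 ± 0.35, adjusted p = 6.89e-07). In the CD8 arrays both lay within 1 log2 unit of the median gene, whose mean level was 5.6. The deposited table gives no detection call, so whether such values stand above background is not known.

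Il4 joined the reversed genes by a small margin. It read 9.10, 8.66 and 9.06 in CD4 controls and 4.46, 4.32 and 4.74 in CD4 Foxp3-positive arrays, against 4.26, 4.47 and 4.57 and then 4.96, 5.24 and 4.88 in CD8 cells. The fall of 4.43 ± 0.15 in CD4 made up most of the interaction of 5.02 ± 0.21 (adjusted p = 4.56e-08), and the CD8 rise of 0.59 ± 0.15 took place below the mean level of the median gene. Of the 23 measured genes of the type 2 helper program, 17 had a positive interaction and 1, Il17rb, a negative one, with a median of 1.77, against 6.01% positive, 7.48% negative and a median of -0.01 over all genes. The median change was -0.08 in CD8 and -1.63 in CD4. Penk, the precursor of enkephalin, fell from 12.08, 12.10 and 11.95 to 7.53, 7.17 and 7.26 in CD4 and stayed at 4.99 to 5.61 in CD8 (4.54 ± 0.22, adjusted p = 9.55e-08). Cyp11a1, which starts steroid synthesis, fell by 5.33 ± 0.11 in CD4 and 0.50 ± 0.11 in CD8, an interaction of 4.83 ± 0.15 that was 3.27 with its clusters averaged. Ccr8, a chemokine receptor of type 2 and regulatory cells, reached a positive interaction through CD8 instead. It rose from 3.81, 4.43 and 4.00 to 7.25, 7.49 and 7.62 in CD8 while staying at 9.48 to 9.86 in CD4 (3.66 ± 0.20, adjusted p = 3.79e-07). Il17rb, a receptor chain of IL-25, rose by 1.20 ± 0.15 in CD8 and by 2.41 ± 0.15 in CD4. Irf4, the brightest member that did not pass, had an interaction of -0.08 ± 0.20.

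**Figure D3:**
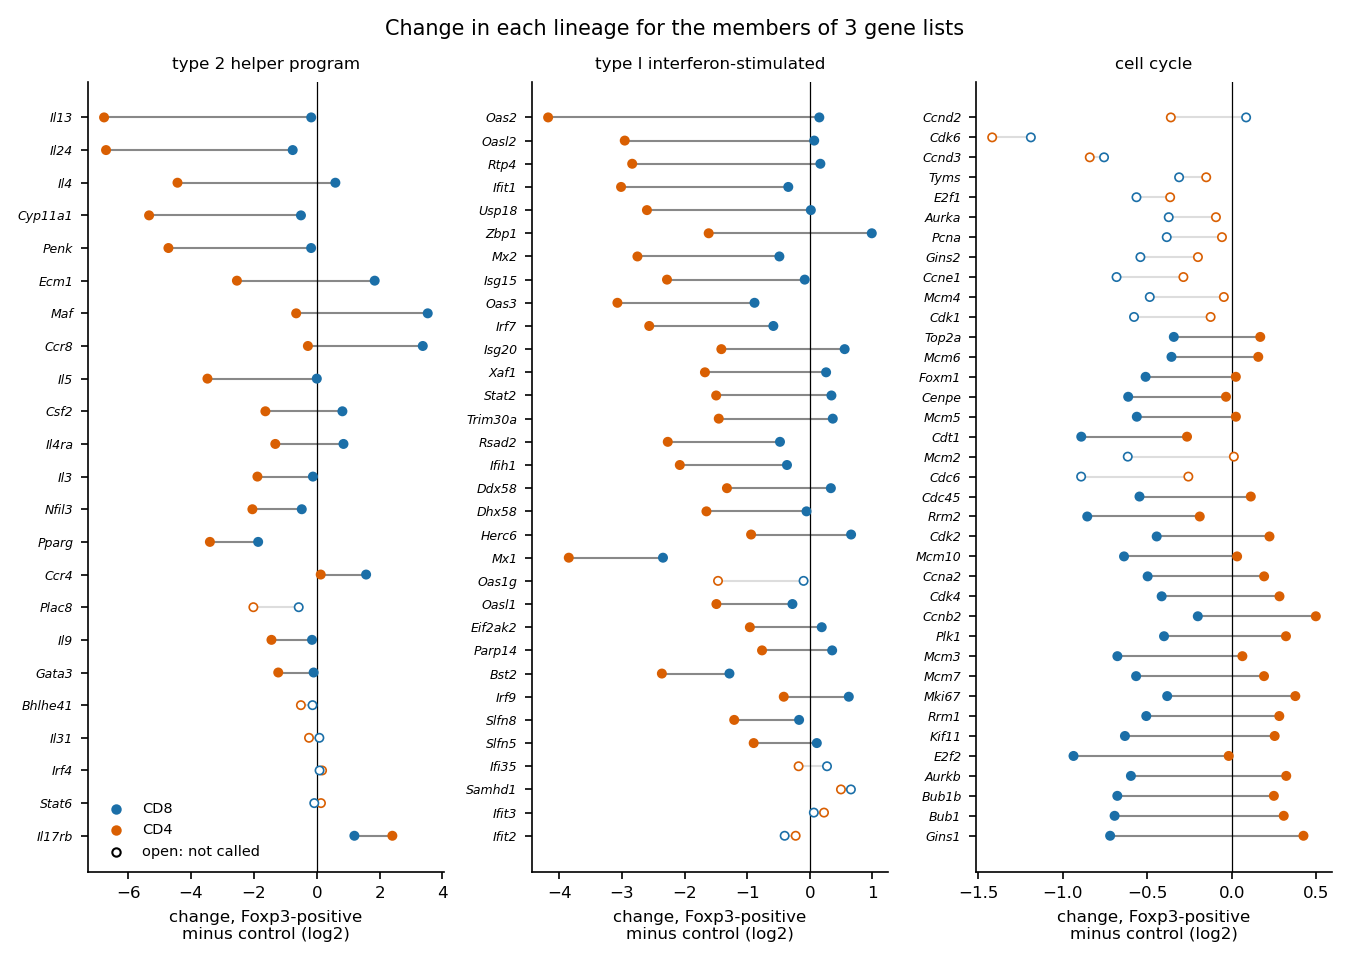
Change from control to Foxp3-positive cells (log2, horizontal axis) in CD8 (blue) and CD4 (orange) for each measured member of 3 lists, ordered by interaction, with open symbols where the interaction did not pass. In 17 of 23 type 2 members and 27 of 32 type I interferon members the interaction was called with the orange point left of the blue one, and Il17rb was called the other way. In the cell cycle list the blue points lie left of the orange ones in all 24 called members.

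Il10, the anti-inflammatory cytokine of many regulatory cells, separated the lineages. It read 10.30, 10.30 and 10.43 in CD4 controls and 5.35, 4.75 and 6.35 in CD4 Foxp3-positive arrays, while in CD8 cells it went from 5.89, 6.17 and 5.70 to 6.55, 6.73 and 7.08. The CD4 fall of 4.86 ± 0.30 passed, the CD8 rise of 0.87 ± 0.30 did not (adjusted p = 0.0592), and the interaction was 5.72 ± 0.42 (adjusted p = 3.61e-06). Of 15 measured regulators of Il10 and Il10 itself, 8 had a positive interaction and 0 a negative one (limma, 9 and 0 at an unadjusted p under 0.05). Besides Il10 and Maf the largest was Ahr, the aryl hydrocarbon receptor, which rose from 6.53, 5.67 and 6.29 to 9.34, 9.22 and 9.14 in CD8 and read 8.06 to 8.94 in CD4 (2.56 ± 0.26, adjusted p = 4.35e-05). Bhlhe40, a repressor of Il10, did not pass (0.21 ± 0.12).

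Of 29 measured genes of the regulatory T cell signature, 17 had a positive and 3 a negative interaction, with a median of 0.84, and 4 had reversed. The list was written with these results known, so its direction is not independent evidence. Il10, Penk and Ecm1 had the largest interactions, followed by Itgae, the integrin chain CD103, which is also in the CD8 lineage list. Itgae rose from 5.31, 5.00 and 5.46 to 12.16, 12.12 and 12.26 in CD8 and from 6.21, 6.24 and 6.38 to 11.03, 11.09 and 11.34 in CD4. It rose steeply in both lineages, but further in CD8 (2.05 ± 0.17, adjusted p = 1.12e-05). The 3 members with a negative interaction rose more in CD4. Nt5e, the ectoenzyme CD73, rose by 3.92 ± 0.17 in CD8 and 5.27 ± 0.17 in CD4 (-1.35 ± 0.24, adjusted p = 0.00263). Nrp1, the co-receptor neuropilin, rose by 2.66 ± 0.14 and 4.12 ± 0.14 (-1.46 ± 0.20, adjusted p = 0.000462). For Ikzf2, which encodes Helios, the CD4 rise was 2.71 ± 0.38 and the interaction -2.0 ± 0.54 (adjusted p = 0.0281). That call ended without CD8 Foxp3-positive B, CD4 control C, CD4 Foxp3-positive A or CD4 Foxp3-positive C (adjusted p 0.053 to 0.0676). Il2rb, the brightest member that did not pass, had 0.26 ± 0.17.

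In the TGF-β list of ligands, receptors and feedback genes, 13 of 37 measured members had a positive and 2 a negative interaction, with a median of 0.25. Among the ligands Tgfb3 led. Among the receptors Acvr2a, which binds activins, rose by 3.27 ± 0.12 in CD8 and 1.35 ± 0.12 in CD4, from 5.34 ± 0.28 to 8.61 ± 0.05 and from 6.81 ± 0.10 to 8.16 ± 0.08 (mean ± SD, n = 3). Furin, the protease that matures TGF-β, rose by 2.25 ± 0.09 and 0.48 ± 0.09 (interaction 1.77 ± 0.13, adjusted p = 4.01e-06). Both started lower in CD8 controls than in CD4 controls. The 2 negative members were the transcriptional repressor Tgif1, with a CD4 rise of 1.56 ± 0.15 (-1.20 ± 0.21, adjusted p = 0.00218), and the signal transducer Smad3 (-0.62 ± 0.17, adjusted p = 0.0313). The Smad3 call ended without CD8 control A, CD4 control B or CD4 Foxp3-positive A (adjusted p 0.0759 to 0.0787). Lrrc32, the surface anchor of latent TGF-β, had an interaction of 0.54 ± 0.28 that did not pass.

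The retinoic acid and gut-homing list was mixed, with 5 positive and 4 negative of 21 members and a median of -0.01. P2rx7, an ATP-gated channel that retinoic acid induces, rose from 7.08, 6.54 and 7.40 to 10.63, 10.57 and 10.55 in CD8 and was already at 10.41 to 10.80 in CD4 controls and at 10.27 to 10.51 in CD4 Foxp3-positive arrays (3.81 ± 0.25, adjusted p = 1.28e-06). It thereby reached the level that CD4 cells held in both conditions. Stra6, the retinol transporter, fell by 2.08 ± 0.20 in CD4 (2.32 ± 0.29), and Hic1, a transcriptional repressor, rose by 1.24 ± 0.14 in CD8 (1.22 ± 0.20, adjusted p = 0.0015). With Tgm2 above, the fifth positive member was the receptor Rara at 0.48 ± 0.14. Of the negative members, Gpr15, a gut-homing receptor, rose by 1.5 ± 0.12 in CD4 against 0.26 ± 0.12 in CD8 (-1.24 ± 0.17, adjusted p = 0.000381). The retinol dehydrogenase Rdh11 fell by 1.07 ± 0.09 in CD8 (-0.90 ± 0.13). The retinoic acid-degrading enzyme Cyp26b1 (-0.96 ± 0.26) and the integrin chain Itga4 (-0.82 ± 0.25) were less secure. The calls of Cyp26b1, Itga4 and Rara ended without any of 6, 9 and 9 of the 12 arrays (adjusted p up to 0.0665, 0.0997 and 0.0805).

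Interferon-stimulated genes, which cells switch on through STAT factors when an interferon binds its receptor, formed the list with the largest share of called members. Of 32 measured type I interferon-stimulated genes 27 had a positive and 0 a negative interaction, with a median of 1.69 (limma, 29 and 0 at an unadjusted p under 0.05). Their median change was 0.07 in CD8 and -1.55 in CD4. Oas2, a sensor of double-stranded RNA, read 10.12, 10.39 and 9.42 in CD4 controls and 5.67 to 6.14 in the other 9 arrays (4.34 ± 0.28, adjusted p = 1.27e-06). Oasl2, of the same family, fell by 2.96 ± 0.23 in CD4 (3.03 ± 0.33), and Rtp4, a chaperone of surface receptors, by 2.84 ± 0.30 (3.01 ± 0.42). In CD8 the changes of these 3 were 0.15, 0.07 and 0.17, none past the threshold. Oas genes have near-identical copies, and probes can read more than 1 of them. Samhd1, a nucleotide hydrolase and the brightest member that did not pass, rose in both lineages (interaction 0.16 ± 0.15).

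Of 29 measured genes that interferon-γ induces (GTPases of host defence and antigen presentation), 19 had a positive and 0 a negative interaction, with a median of 0.78 and 6 reversed (limma, 22 and 0 at an unadjusted p under 0.05). Gbp9, a guanylate-binding protein, fell by 2.86 ± 0.24 in CD4 and rose by 0.34 ± 0.24, without passing, in CD8 (3.19 ± 0.34, adjusted p = 6.43e-05). Gbp8, of the same family, reversed, with a rise of 0.84 ± 0.24 and a fall of 2.05 ± 0.24. Iigp1, an immunity-related GTPase, reached a positive interaction the other way. It rose by 3.27 ± 0.31 in CD8, from 6.13 ± 0.66 to 9.39 ± 0.19, and was at 9.75 ± 0.33 and 9.91 ± 0.53 in the CD4 groups (3.10 ± 0.44, adjusted p = 0.000532). B2m, the light chain of MHC class I, did not pass (0.19 ± 0.11).

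Promoters of both lists often held the core of the interferon-stimulated response element, here the letters GAAA and GAAA with 2 bases between on either strand, with overlapping matches allowed. It was present within 250 bases before to 50 after the gene start in 58.3% of 24 type I genes and 47.6% of 21 interferon-γ genes with a RefSeq promoter (GRCm38.p6), against 3.88% of all 16918 genes. Both lists were written as genes that interferon induces, and members without a called interaction were counted too. These shares therefore describe the lists and not the interaction. The promoters of 4 genes are shown, each with the element in the last 150 bases before the start. They were the first called genes of each list, by size of interaction, whose promoter held the element there, so holding it was a condition of the choice. Genes without it there, and genes on a single chromosome, were passed over. Genes with larger interactions, such as Oas2 and Gbp9, are therefore missing. The sequences run 5′ to 3′ up to the start, and capitals mark the element.
Ifit1 (chr19:34640739-34640888, plus strand): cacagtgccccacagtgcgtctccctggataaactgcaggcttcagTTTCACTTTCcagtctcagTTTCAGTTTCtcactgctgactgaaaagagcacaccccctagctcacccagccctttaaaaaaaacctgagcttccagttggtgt
Isg15 (chr4:156200819-156200968, minus strand): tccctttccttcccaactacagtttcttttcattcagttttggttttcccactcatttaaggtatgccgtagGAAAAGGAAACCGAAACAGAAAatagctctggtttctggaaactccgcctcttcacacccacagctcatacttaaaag
Irgm1 (chr11:48871421-48871570, minus strand): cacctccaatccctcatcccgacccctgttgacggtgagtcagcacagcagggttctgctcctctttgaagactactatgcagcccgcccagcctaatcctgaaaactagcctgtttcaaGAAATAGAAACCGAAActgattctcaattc
Socs1 (chr16:10785537-10785686, minus strand): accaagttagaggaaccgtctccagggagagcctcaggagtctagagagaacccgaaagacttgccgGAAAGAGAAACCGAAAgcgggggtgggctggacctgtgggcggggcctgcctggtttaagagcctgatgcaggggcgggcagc
Ifit1 encodes a protein that binds foreign RNA, Isg15 a ubiquitin-like modifier, Irgm1 a GTPase and Socs1 an inhibitor of cytokine receptors. The element ended closest to the start in Irgm1, with 14 bases between its end and the start. In Isg15, Socs1 and Ifit1 56, 67 and 75 bases lay between. The interactions of these 4 genes were 2.67 ± 0.35 (Ifit1), 2.20 ± 0.19 (Isg15), 1.55 ± 0.17 (Irgm1) and 1.27 ± 0.21 (Socs1), with a highest adjusted p of 0.00137.

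Over all called genes the shares differed less. The response element core was in 6.93% of 1039 positive and 3.81% of 1337 negative genes with a promoter. Among reversed genes it was in 11.9% of 118 that rose in CD8 and 2.4% of 125 that fell in CD8. An AP-1 site (TGACTCA) was in 7.31% of positive, 3.14% of negative and 5.52% of all genes. A SMAD element (CAGACA) was in 23.2, 18.6 and 21.0%, a retinoic acid receptor site (AGGTCA) in 16.8, 14.1 and 16.4%, a gamma-activated site (TTCNNNGAA) in 9.24, 8.23 and 9.13%, and a MAF site (TGCTGAC) in 4.91, 4.19 and 5.0%. An E-box (CACGTG) was in 9.91% of positive, 11.5% of negative and 9.22% of all genes, in 15.2% of the reversed genes that fell in CD8, and in 7.04% of negative genes of 2-fold or more. These matches are a description, were not tested, and do not show that a factor binds.

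Of 27 measured cytotoxic genes 9 had a positive and 4 a negative interaction, with a median of 0.58, and 3 granzymes had the largest. Gzmb, granzyme B, went from 13.34, 13.25 and 13.04 to 11.79, 11.84 and 11.69 in CD8 and from 13.22, 13.27 and 13.25 to 8.40, 7.74 and 9.99 in CD4. The controls of both lineages overlapped, and the CD4 fall of 4.54 ± 0.39 was larger than the CD8 fall of 1.44 ± 0.39 (3.10 ± 0.55, adjusted p = 0.00247). Gzma fell from 12.78, 13.04 and 12.81 to 8.32, 7.20 and 9.15 in CD4 and read 9.97 to 11.19 in the CD8 arrays (3.95 ± 0.52, adjusted p = 0.000317). In both genes CD4 Foxp3-positive C was the highest array of its group, and without it the interaction of Gzmb was 3.74. Gzmc behaved like them (3.25 ± 0.46), and granzymes have near-identical copies that probes may not separate.

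The 4 negative members included Gzmk, a granzyme of memory-like CD8 cells, which fell from 8.12, 8.10 and 8.70 to 5.59, 5.74 and 5.74 in CD8 and read 5.20 to 6.01 in CD4 (-2.37 ± 0.28, adjusted p = 0.000156). The granzyme inhibitors Serpinb6b (-1.27 ± 0.21) and Serpinb9 (-1.23 ± 0.27) fell more in CD8. Ctsw, the lysosomal protease cathepsin W, rose in both lineages but more in CD4 (-0.98 ± 0.15, adjusted p = 0.00105). Nkg7, a granule protein, did not pass (0.30 ± 0.20). In the CD8 lineage list of 13 genes the positive members were Itgae, Cd8b1 and the transcription factor Runx3, which fell by 1.03 ± 0.17 in CD4 (1.18 ± 0.24), and Gzmk was the negative one. In the CD4 lineage list of 12, 7 were positive, led by Il4 and Trat1, and 2 negative. These were St8sia6, below, and Tox, a nuclear factor that rose by 2.05 ± 0.17 in CD8 and 3.17 ± 0.17 in CD4 (-1.12 ± 0.24, adjusted p = 0.00764).

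Of 18 measured type 1 effector genes 6 had a positive and 1, Il18r1, a negative interaction. Il12rb1, a chain of the IL-12 receptor, fell by 2.87 ± 0.15 in CD4 and 0.44 ± 0.15 in CD8 (2.43 ± 0.21, adjusted p = 1.12e-05). Havcr2, the inhibitory receptor TIM-3, fell in both, by 5.45 ± 0.12 in CD4 and 3.04 ± 0.12 in CD8, from control levels of 10.65 ± 0.14 and 10.07 ± 0.21 (mean ± SD, n = 3) (2.41 ± 0.17, adjusted p = 2.78e-06). Ifngr1, the interferon-γ receptor chain, did not pass (-0.24 ± 0.14). In the IL-1 and IL-18 receptor family, 6 of 16 were positive and Il18r1 was the negative one. Il1r2, a decoy receptor that binds IL-1, fell from 10.29, 10.66 and 10.76 to 4.79, 4.66 and 4.71 in CD4 and from 5.92, 5.65 and 5.75 to 4.61, 5.01 and 4.94 in CD8 (4.93 ± 0.19, adjusted p = 2.58e-08). Il1r1, the signalling receptor, reversed at low levels, with a rise of 0.80 ± 0.20 in CD8 and a fall of 1.11 ± 0.20 in CD4. Its values lay between 4.47 and 6.30 as group means, and Traf6, their shared adaptor, did not pass (-0.22 ± 0.18).

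Of 19 type 17 genes 6 were positive, led by Ahr, and 3 negative. Il6ra, the IL-6 receptor, rose by 2.18 ± 0.15 in CD4 and changed by 0.18 ± 0.15 in CD8 (-2.0 ± 0.21, adjusted p = 4.96e-05). Ccr6, the chemokine receptor of type 17 cells, rose by 2.74 ± 0.18 in CD4 and 0.81 ± 0.18 in CD8 (-1.93 ± 0.25, adjusted p = 0.000314). The third, its ligand Ccl20 (-0.57 ± 0.15), lost its call without any of 5 arrays (adjusted p up to 0.0659). Il6st, the signal chain of the IL-6 receptor, did not pass (0.27 ± 0.26). Of 18 follicular helper genes 7 were positive and 2, Il6ra and Pdcd1, negative. Besides Maf the largest were Il21, which fell by 2.42 ± 0.18 in CD4 (2.42 ± 0.25, adjusted p = 5.35e-05), and Cd200, a surface ligand that rose by 2.36 ± 0.29 in CD8 (2.18 ± 0.40, adjusted p = 0.00323). Slamf6 did not pass (-0.54 ± 0.20).

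Among 21 receptors and signal inhibitors of the common gamma chain family 8 were positive and 0 negative (limma, 9 and 0 at an unadjusted p under 0.05). Il4ra, the IL-4 receptor, went from 9.76, 9.66 and 9.50 to 10.59, 10.49 and 10.39 in CD8 and from 12.01, 11.91 and 12.06 to 10.74, 10.53 and 10.76 in CD4, without overlap within a lineage (2.17 ± 0.14, adjusted p = 1.28e-06). Socs3, a feedback inhibitor of cytokine receptors, rose by 1.12 ± 0.11 in CD8 and fell by 0.44 ± 0.11 in CD4. Il21r did likewise with 0.46 ± 0.08 and a fall of 0.85 ± 0.08. These 3 genes therefore reversed together.

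Inhibitory receptors and ligands had 11 positive and 3 negative of 21, the latter being Pdcd1, Nt5e and Tox. The largest positive were Cd200r1, the receptor of CD200, with a CD4 fall of 2.04 ± 0.24 (2.64 ± 0.33, adjusted p = 0.000248), then Havcr2 and Cd200. Ctla4 did not pass (0.48 ± 0.22). Of 28 costimulatory TNF family genes 10 were positive and 5 negative. Tnfrsf8, the receptor CD30, fell by 5.27 ± 0.22 in CD4 and 1.70 ± 0.22 in CD8 (3.56 ± 0.31, adjusted p = 1.21e-05). Tnfsf13b, the B cell factor BAFF, reversed, with 0.79 ± 0.18 and a fall of 1.37 ± 0.18. Fasl, the death ligand, fell by 1.29 ± 0.17 in CD4 (1.64 ± 0.23). Of the negative members Tnfsf4, the OX40 ligand, rose by 1.03 ± 0.16 in CD4 (-1.29 ± 0.22, adjusted p = 0.00217). The other 4, Cd40, Tnfsf9, Tnfrsf25 and Ltb, had interactions of -1.0, -0.84, -0.58 and -0.43, and each call ended without any of at least 5 arrays. Their adjusted p then reached 0.103, 0.0711, 0.0713 and 0.0799.

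Among 32 chemokine receptors and integrins 9 were positive and 7 negative. Ccr8 was followed by Ccr1, which fell by 3.92 ± 0.16 in CD4 from 7.81 ± 0.16 to 3.89 ± 0.34 (3.49 ± 0.23, adjusted p = 1.28e-06). S1pr1 was the largest negative member, and the bright ligand of selectins Selplg did not pass (0.01 ± 0.11). Of 16 chemokines 3 were positive and Ccl20 was negative. Ccl3 fell by 1.56 ± 0.23 in CD4 (2.19 ± 0.32), Ccl4 rose by 0.57 ± 0.16 in CD8 and fell by 0.56 ± 0.16 in CD4 (1.13 ± 0.22, adjusted p = 0.00495), and Cxcl3, at group means of 2.48 to 5.68, lay below the median gene in 3 of the 4 groups. Ccl5 fell by 2.50 ± 0.26 and 2.56 ± 0.26, with an interaction of 0.07 ± 0.37 that did not pass.

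Enzymes of sialic acid and glycan synthesis, the list that holds Cmah, had 4 positive and 8 negative of 43 members. That was 27.9% called against 13.5% of all genes, with a median interaction of 0.01. Galnt3, which starts O-linked glycans, fell from 9.41, 9.31 and 9.38 to 5.62, 5.88 and 5.82 in CD8 and from 7.19, 6.99 and 6.75 to 6.16, 6.10 and 5.80 in CD4 (-2.63 ± 0.18, adjusted p = 1.98e-06). It fell in both lineages, more in CD8 where it had started higher. St8sia6, a sialyltransferase, rose in both, from 5.27, 5.20 and 5.41 to 6.71, 6.08 and 6.71 in CD8 and from 5.35, 5.87 and 5.64 to 9.31, 9.42 and 8.81 in CD4 (-2.36 ± 0.28, adjusted p = 0.000139). The positive members were the sialyltransferases St8sia1 (1.70 ± 0.16), which rose by 1.47 ± 0.11 in CD8, St3gal1 (1.62 ± 0.16), which fell by 2.43 ± 0.11 in CD4, and St6galnac2 (0.91 ± 0.20), and the fucosyltransferase Fut8 (1.05 ± 0.16). Galnt1 did not pass (0.31 ± 0.13).

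Of 37 measured cell cycle genes 0 had a positive and 24 a negative interaction (limma, 1 and 29 at an unadjusted p under 0.05), with a median of -0.63, a median change of -0.56 in CD8 and of 0.02 in CD4. Gins1, a subunit of the replicative helicase, went from 8.41, 8.37 and 8.18 to 7.54, 7.69 and 7.57 in CD8 and from 7.35, 7.12 and 7.29 to 7.63, 7.79 and 7.62 in CD4 (-1.14 ± 0.14, adjusted p = 0.000187). The lineages met in the Foxp3-positive cells, and 5 members of the list, Gins1 included, reversed in this direction. Bub1, a mitotic checkpoint kinase, went from 9.44, 9.54 and 9.55 to 8.91, 8.95 and 8.60 in CD8 and from 8.60, 8.49 and 8.62 to 9.01, 8.81 and 8.82 in CD4, where the rise did not pass (-1.0 ± 0.15, adjusted p = 0.00082). Bub1b followed (-0.93 ± 0.17), and Pcna, the bright sliding clamp, did not pass (-0.33 ± 0.13). The interactions were small beside those of cytokines, and culture time, which differed by lineage, cannot be told apart from lineage here.

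In the metabolic lists 13.6% of sterol synthesis, 12.5% of glycolysis and hypoxia and 33.3% of amino acid supply and stress members were called, against 13.5% of all genes. In sterol synthesis 3 of 22 were negative and 0 positive (limma, 9 and 1 at an unadjusted p under 0.05). The 3 were Hmgcs1 (-0.99 ± 0.24, adjusted p = 0.0153), Cyp51 (-0.56 ± 0.17) and Sc5d (-0.40 ± 0.11), and the calls of Cyp51 and Sc5d ended without any of 10 and 9 arrays (adjusted p up to 0.116 and 0.0802). In amino acid supply and unfolded protein stress 3 of 30 were positive and 7 negative, and the latter count ran from 5 to 11 with 1 array left out. Sesn2, a stress-induced inhibitor of mTORC signalling, reversed with 0.52 ± 0.15 and a fall of 0.65 ± 0.15 (1.17 ± 0.22, adjusted p = 0.00324), and Phgdh, the entry enzyme of serine synthesis, fell by 0.85 ± 0.16 in CD8 (-1.06 ± 0.23). The other positive members were Xbp1 (0.60 ± 0.15) and Ddit3 (0.52 ± 0.16), whose call ended without any of 10 arrays (adjusted p up to 0.105). In glycolysis and hypoxia the lactate transporter Slc16a1 was negative (-0.98 ± 0.17, adjusted p = 0.00216). Egln3 (0.97 ± 0.28) and Hk1 (0.62 ± 0.17) were positive, each lost without any of 9 arrays (adjusted p up to 0.0839 and 0.0757).

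Genes of naive and memory cells had 3 positive and 6 negative of 19. Satb1, a chromatin organiser, fell by 2.73 ± 0.15 in CD4 and 1.14 ± 0.15 in CD8 (1.59 ± 0.21, adjusted p = 0.00035), Bcl2 had 0.55 ± 0.14, and Il7r had 1.10 ± 0.31 with a call that ended without any of 6 arrays (adjusted p up to 0.0798). Klf2 led the negative ones. Of 31 receptor signal and activation genes 5 were positive and 6 negative. Dusp10, a MAP kinase phosphatase, fell by 2.76 ± 0.11 in CD4 and 0.61 ± 0.11 in CD8 (2.15 ± 0.15, adjusted p = 2.78e-06). The AP-1 family members Batf (1.75 ± 0.18), Fosl2 (1.21 ± 0.29) and Junb (0.78 ± 0.18) each fell more in CD4, and Egr3 (0.76 ± 0.22) rose more in CD8 but lost its call without any of 8 arrays (adjusted p up to 0.0847). Nr4a3, a nuclear receptor induced by receptor signals, rose from 6.10, 6.14 and 5.62 to 8.84, 8.65 and 8.54 in CD4 and from 7.31, 7.49 and 7.45 to 7.79, 7.98 and 8.16 in CD8 (-2.16 ± 0.21, adjusted p = 2.68e-05). In survival and death 8 of 19 were positive, led by Gadd45g (1.80 ± 0.41), Casp4 (1.25 ± 0.18) and Bcl2l11, which encodes the death factor BIM (0.96 ± 0.18), and Bid (-0.76 ± 0.14) was the negative one.

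**Figure D4:**
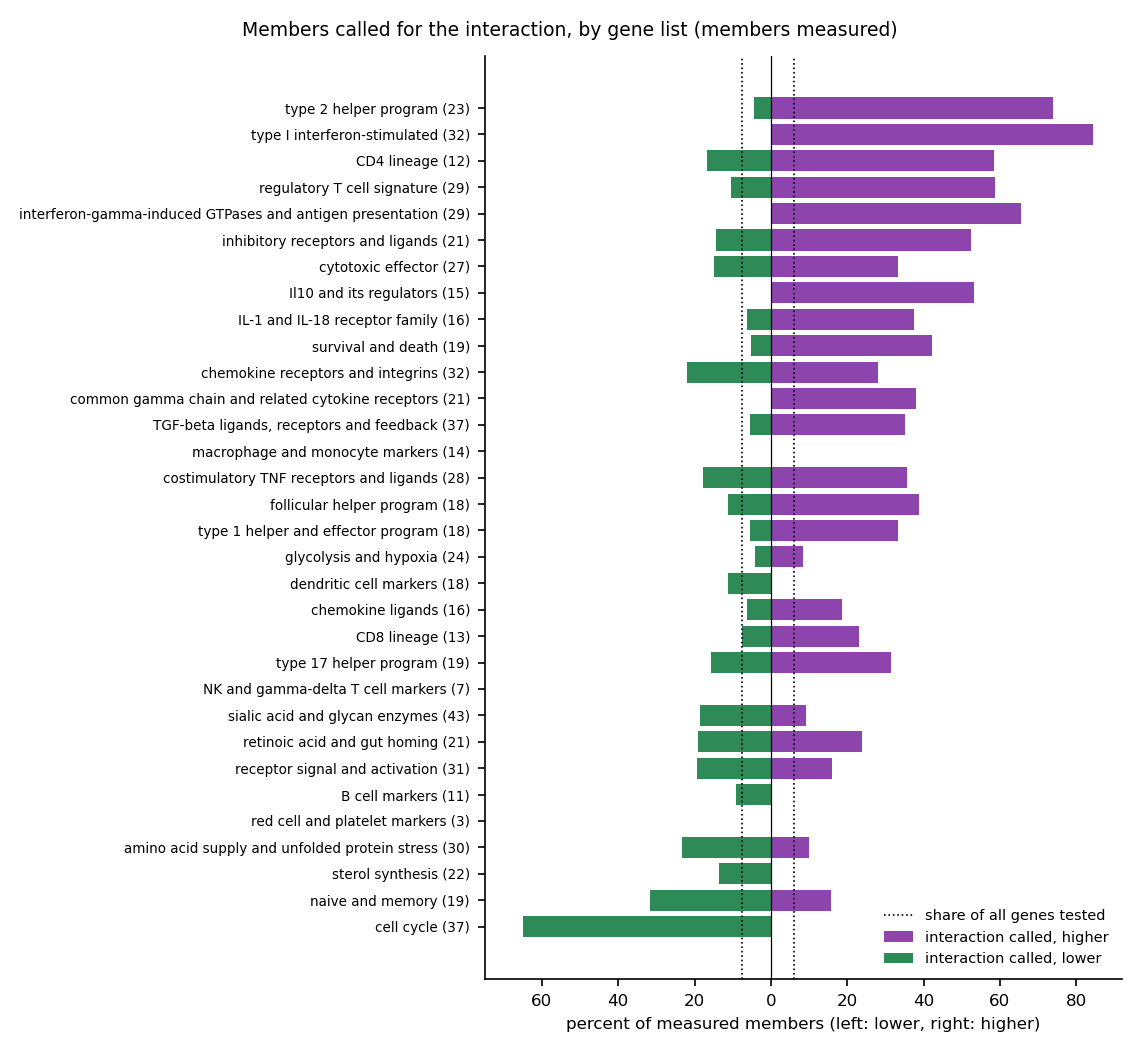
Share of the measured members of 32 gene lists whose interaction passed, positive to the right and negative to the left (percent), with lists ordered by median interaction and dotted lines at the shares of all genes, 6.01 and 7.48%. The type I interferon, type 2 and interferon-γ lists reach furthest right, and the cell cycle list reaches furthest left with no bar to the right.

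Some genes responded mainly in CD8 cells outside these lists. Car2, a carbonic anhydrase, rose from 5.67, 5.89 and 5.46 to 10.51, 10.58 and 10.82 in CD8 and from 6.94, 6.95 and 6.08 to 7.83, 7.27 and 8.42 in CD4 (3.78 ± 0.39, adjusted p = 4.88e-05). Klra5, of the killer lectin-like receptors, rose by 3.94 ± 0.21 and 0.87 ± 0.21 (3.07 ± 0.30), and Psg17, a pregnancy-specific glycoprotein, by 4.46 ± 0.26 and 1.58 ± 0.26 (2.88 ± 0.36). Both families have near-identical copies. Ly6g5b rose by 3.00 ± 0.19 in CD8 and changed by -0.11 ± 0.19 in CD4. The falls in CD8 with no passing CD4 change included Maats1 (-2.07 ± 0.16, with an interaction of -2.13 that was -1.12 with its clusters averaged) and Endou (-2.05 ± 0.15), and the larger falls in CD8 included Tarsl2 (-2.29 ± 0.13) and Ehd3 (-2.32 ± 0.15).

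Other genes responded mainly in CD4 cells. Fnbp1l, a protein that bends membranes, rose from 4.42, 4.30 and 4.11 to 8.47, 8.67 and 8.41 in CD4 and from 4.09, 4.42 and 4.42 to 6.31, 6.12 and 6.25 in CD8 (-2.32 ± 0.17, adjusted p = 3.32e-06). Its controls were at one level in both lineages, and the lineages differed in the Foxp3-positive cells. Emp1, a membrane protein, rose by 2.83 ± 0.17 and 0.62 ± 0.17 (-2.22 ± 0.24). Car5b, a mitochondrial carbonic anhydrase, rose by 2.35 ± 0.18 in CD4 and changed by 0.12 ± 0.18 in CD8 (-2.24 ± 0.26), and Tspan2 (2.06 ± 0.17) and Abi3bp (2.10 ± 0.12) also rose in CD4 with CD8 changes of -0.03 and 0.08. Ermn, an actin-binding protein, fell by 5.14 ± 0.25 in CD4 and 0.85 ± 0.25 in CD8 (4.29 ± 0.35, adjusted p = 9.08e-06). Of the genes in which neither change passed, Elavl3 had an interaction of 0.74 ± 0.18 from changes of 0.38 and -0.36.

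By its construction the interaction also equals the gap between CD8 and CD4 in Foxp3-positive cells minus that gap in controls, so the 2 gaps are given side by side. Over all genes the median size of the gap was 0.158 in controls and 0.116 in Foxp3-positive cells. The gap passed the test for 4636 genes (20.9%) in controls and for 1044 (4.71%) in Foxp3-positive cells, which share no array. Among genes with a positive interaction the median gap was 0.662 in controls and 0.242 in Foxp3-positive cells, and among those with a negative interaction 0.551 and 0.15. For the 310 reversed genes it was 0.887 and 0.198. Maf went from -4.90 to -0.71, P2rx7 from -3.61 to 0.20, Il13 from -6.48 to 0.11, Galnt3 from 2.39 to -0.24 and Gins1 from 1.07 to -0.08. Other genes opened a gap: Fnbp1l went from 0.03 to -2.29, Klra5 from -0.04 to 3.02 and Car2 from -0.99 to 2.80. Tgfb3 turned over, from -3.65 to 1.61, as did Cmah, from 2.42 to -0.75.

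**Figure D5:**
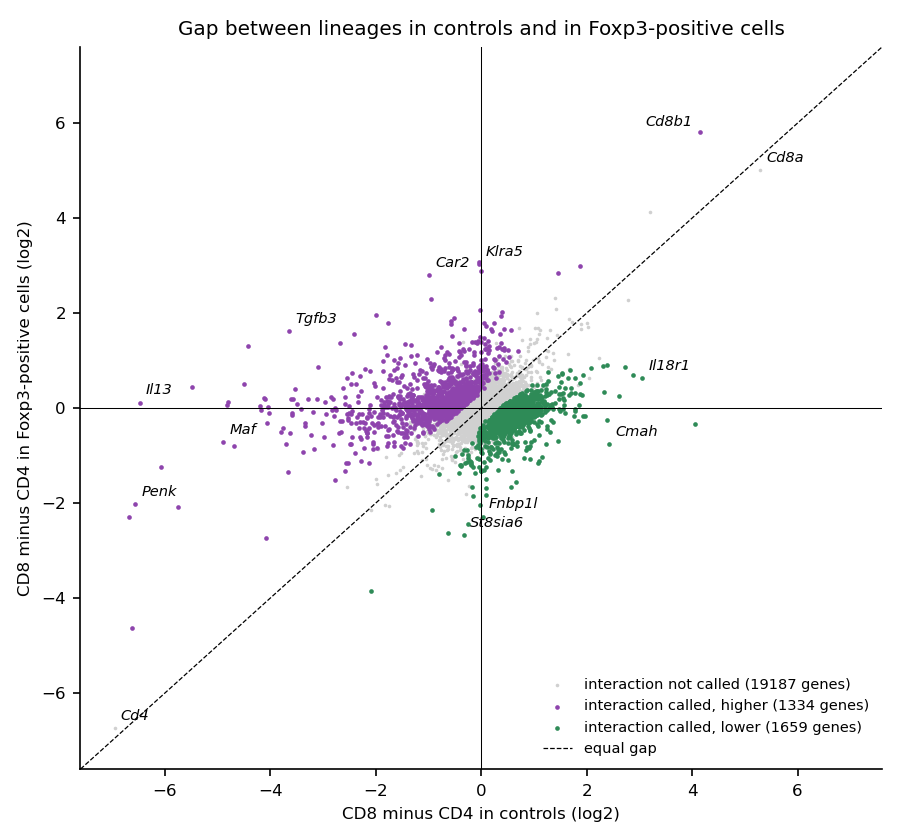
Gap between lineages (CD8 minus CD4, log2) in controls (horizontal axis) and in Foxp3-positive cells (vertical axis) for 22180 genes, with called genes coloured by the sign of the interaction and a dashed line of equal gap. Cd4 and Cd8a lie near the dashed line, Il13 and Maf lie far to the left near a vertical value of 0, and Fnbp1l, St8sia6 and Klra5 lie near a horizontal value of 0 with a gap on the vertical axis.

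The cultures held dendritic cells, and markers of other cells were read beside these results. Of 18 dendritic cell markers 0 had a positive and 2 a negative interaction (limma, 2 and 2 at an unadjusted p under 0.05). These were Cd80, above, and Itgax, which encodes CD11c and fell from 6.53 ± 0.12 to 4.77 ± 0.11 in CD8 while reading 4.95 ± 0.12 and 4.87 ± 0.29 in CD4 (-1.69 ± 0.19, adjusted p = 9.64e-05). Of the others, Flt3, Zbtb46 and Xcr1 stayed at group means of 4.77 to 5.49, below the median gene, with no interaction past the threshold. Only 6 of the 18 markers had a highest group mean below the median gene. The CD8 change passed upward for 3 and downward for 3 of the 18, and the CD4 change for 3 and 2. Over all genes the change passed for 20% in CD8 and 22.5% in CD4, both signs together. H2-Ab1 had the highest interaction of the list, 1.01, which did not pass (adjusted p = 0.192). With 1 array left out its adjusted p ran from 0.0127 to 0.38. The mean level of the list per array was 6.41 to 6.48 in CD8 controls, 6.33 to 6.51 in CD8 Foxp3-positive, 6.42 to 6.46 in CD4 controls and 6.32 to 6.59 in CD4 Foxp3-positive arrays, so the ranges overlapped. Of 11 B cell markers Ighm alone passed (-0.66 ± 0.13), a call whose sign turned when all clusters of the gene were averaged (0.34), and of 14 macrophage, 7 NK and γδ T cell and 3 red cell and platelet markers 0 passed (limma, 2, 1 and 0 at an unadjusted p under 0.05). Fcer1g had the highest interaction of the NK and γδ T cell list, 1.74 (adjusted p = 0.0828, and 0.0234 to 0.175 with 1 array left out). Cd68 had 0.56 (adjusted p = 0.0979, and 0.0105 to 0.208) and Cd79b 0.33 (adjusted p = 0.39). The mean level of the NK and γδ T cell list per array was nevertheless 5.33 to 5.43 in CD8 controls against 5.79 to 5.93 with Foxp3, and 5.10 to 5.63 against 5.40 to 5.65 in CD4. That of the macrophage list was 5.01 to 5.02 against 5.12 to 5.40 in CD8 and 4.99 to 5.15 against 5.00 to 5.21 in CD4, and that of the B cell list 5.5 to 5.6 against 5.61 to 5.80 and 5.38 to 5.5 against 5.6 to 5.71. These ranges did not overlap in CD8 for any of the 3 lists, and overlapped in CD4 for the first 2. The part of such cells in the interactions was not tested. Of the T cell receptor complex, Cd3e read 12.30 to 12.94 in all arrays, with an interaction of 0.13 ± 0.13 that did not pass. Cd3g read 12.03 to 12.66, and its interaction of 0.62 ± 0.15 passed (adjusted p = 0.0143), with a CD4 fall of 0.37 ± 0.10.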

How the data were processed

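Total RNA of sorted mouse T cells was hybridised to 12 single-channel Affymetrix arrays, 250 ng for each. The deposited values are on the log2 scale, and the submitters' processing notes name RMA, run in Affymetrix Expression Console, as what the authors used to summarise each transcript cluster. For software versions, build and annotation, the entry is "not given in the sources used here". RMA makes the distribution of values alike on all arrays, so a shift shared by most genes cannot be seen. No batch or scan date is given.

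Of 34365 clusters, 23521 had 1 gene symbol in the platform annotation, 1814 several and 9030 none listed. The brightest cluster by the mean over 12 arrays stood for each of 22180 genes, and 1082 genes had more than 1. No filter on level was applied. Means of the 4 groups were fitted with limma 3.58.1 (lmFit and eBayes, R 4.3.3, 8 residual degrees of freedom), and the interaction, both single-lineage changes and both gaps were taken as contrasts. P-values are two-sided and Benjamini-Hochberg adjusted over all genes, with a threshold of 0.05. "Passed" and "called" refer to that threshold, "±" to the standard error unless SD is written. The procedure was tested on simulated interactions on 22180 genes and recovered 2.99% of 67 genes changed by 0.5 log2 units, 70.1% of 67 changed by 1 and 100% of 66 changed by 2, with 8 false calls among 123. Far fewer genes changed in the simulation than were called in the data, which makes the adjusted threshold stricter. These shares therefore do not give the recovery behind the reported calls. The number of arrays limits the precision.

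The gene lists, the genes taken to mark the interaction and the naming rule were chosen with earlier results of these data known. The rule named the marking genes and co-receptors, the 12 largest interactions of each sign, the 8 reversed genes of each direction with the largest smaller change, the 3 largest of each other class, and, of each list, the 3 largest, the brightest that did not pass and those called 5 or fewer to a direction. All but list members needed a highest group mean of at least the median gene level. Predicted genes, Rik, LOC and clone names, small RNAs and pseudogenes were passed over before ranking. The largest are therefore the largest among the remaining genes. Other genes named were chosen after their values were seen. Promoters came from RefSeq (GRCm38.p6), which held 16918 of the genes. Alternatives were a filter on low levels, a trended robust prior, a replicate block, array weights, 3 other scalings, averaged clusters and each array left out.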

Additional observations from a re-analysis of the deposited data

Results flagged for a closer look

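The change differed between the lineages by a test of the difference itself (limma's interaction contrast) in 1334 genes with a positive and 1659 with a negative interaction. Reversed genes are by definition called genes whose 2 changes passed with opposite signs, and 16 of them, named for the size of the smaller change, are given here as a description. Of these, 8 rose in CD8 and fell in CD4, with interactions of 5.26 for Tgfb3, 4.88 for Asb2, 4.38 for Ecm1, 3.97 for Cdh17, 3.90 for Trat1, 3.34 for Tgm2, 2.79 for Hip1 and 2.46 for Gpr171. The other 8 fell in CD8 and rose in CD4, with interactions of -2.43 for Il18r1, -2.19 for S1pr1, -1.99 for Chchd10, -1.92 for Pstpip2, -1.74 for Dnph1, -1.43 for Dennd4a, -1.32 for Parp8 and -1.31 for Mtap.

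Clusters outside the gene-level comparison also carried interactions. Of 1814 clusters with several symbols 88 (4.85%) passed the threshold, and of 9030 clusters with no symbol listed 168 (1.86%) did. Groups of 3 arrays are too small for a test of single outlying arrays.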

How the results depend on the processing

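Results were recomputed under 20 alternatives, 12 of which left out 1 array each. Of 142 named genes that were called, 118 kept their direction and their call under all 20, 23 lost the call without at least 1 array, and Ighm lost it when clusters were averaged. The number called ranged from 2253 to 3158 with 1 array left out and from 2921 to 3795 otherwise, and every gene shared with the reported calls had the same direction. Genes that fell in CD8 and rose in CD4 numbered 278 with the filter on low levels, which tested 11813 genes, and 89 (without CD4 control B) to 196 (without CD8 control C) with 1 array left out. Cyclic loess moved the share of positive interactions among called genes from 44.6 to 55.9%. The deviations of same-letter arrays of different groups correlated at -0.10 to 0.14, over 0.1 in 2 of 18 pairs, and those of other-letter arrays at -0.14 to 0.088. The letters were not used to pair the samples in the reported fit. These values do not settle whether a letter marks a shared origin. Between CD8 controls and CD8 Foxp3-positive arrays the 3 same-letter values were 0.054, 0.13 and 0.14, and the others -0.14 to 0.016. With the replicate block 2921 genes were called, 301 reversed, and 3 named genes lost and 1 gained a call.

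Signs turned in genes near 0 that had not passed. With array weights Ccl5 was -0.11 and Casp8 -0.0092. With median scaling Selplg was -0.034, Gapdh -0.023 and Casp8 -0.026, and with quantile normalization repeated they were -0.10, -0.027 and -0.032. With cyclic loess Irf4 was 0.0026, Selplg -0.00257 and Gapdh -0.021. With all clusters of a gene averaged Jund was 0.084 and Ighm, which had passed as negative, 0.34. With 1 array left out Foxp3 ranged from -0.068 to 0.48, Cd4 from -0.023 to 0.53, Cd8a from -0.59 to 0.12, Irf4 from -0.24 to 0.12, Selplg from -0.026 to 0.058, Ccl5 from -0.19 to 0.32, Jund from -0.18 to 0.00026, Gapdh from -0.0070 to 0.044 and Casp8 from -0.0080 to 0.043. The cause of these turns was not tested. With 1 array left out the positive count of the glycolysis list ran from 0 to 4, and the negative counts of the sterol, TNF family, retinoic acid and TGF-β lists from 1 to 5, 1 to 5, 2 to 4 and 1 to 3. With 3 arrays a group, differences of 0.5 log2 units were seldom recovered in simulated data. Far fewer genes changed there than were called here, so that share does not carry over to the reported calls.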

Other observations

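Some gene families were chosen after their values were seen. Over all genes 6.01% had a positive and 7.48% a negative interaction. Of 20 centromere protein genes 0 had a positive and 15 a negative interaction, with a median of -0.61, and of 17 nucleoporin genes 0 and 10, with a median of -0.59. Of 71 mitochondrial ribosomal protein genes 0 and 18 did (median -0.32), and of 41 kinesin genes 2 and 12 (median -0.19). Their median changes were -0.44, -0.50, -0.20 and -0.14 in CD8 and 0.19, 0.08, 0.11 and 0.01 in CD4. Receptors of leukotrienes, lipid mediators of inflammation, had a positive interaction in 3 of 3. Cysltr1 had 3.96 ± 0.27, Cysltr2 2.97 ± 0.18 and Ltb4r1 1.09, and Cysltr1 reversed, with a rise of 0.85 ± 0.19 in CD8 and a fall of 3.11 ± 0.19 in CD4. No test was run on these families.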
